A study of Mus musculus with 8 samples.

Results

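Mitosis, kinetochore and spindle genes are described here in cultured mouse tail tendon fibroblasts with and without scleraxis (Scx), the transcription factor best known for its role in tendon. A list of 56 gene symbols defined the set, and each symbol was looked up in the deposited count table. All 56 were found among the 24982 genes of that table, 55 by symbol and 1 through a RefSeq synonym (Sgol1, listed as Sgo1). All 56 also passed the filter on low counts that left 13125 genes for testing, and the smallest count of any of them in a library was 66. The list was not drawn from a contrast of these values, although it was proposed with earlier results of the same data known.

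The Scx-deleted group (genotype Scx-) held 4 RNA-seq libraries, numbered 2, 3, 4 and 5 in the labels, and the Scx-positive group (genotype Scx+) held 4, numbered 2, 3, 5 and 6. Both groups were C57Bl/6 tail tendon fibroblasts grown in culture, and cells of both groups had received 4HT, so that this exposure was shared and not compared. The labels do not give the Cre driver, the deleted stretch of Scx, or the number of animals behind a library. So the spread behind each p-value is that of these libraries and may be technical. In whole cultures, fewer cells in division and less of these transcripts per dividing cell cannot be told apart.

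Division of a cell is driven by a kinase, Cdk1, bound to cyclin A and then cyclin B, and by the Polo, Aurora and Bub1 kinases that act beside it. Condensins compact the chromosomes, kinetochores tie them to spindle microtubules, kinesins and spindle proteins move them, and the spindle checkpoint holds separase and the anaphase-promoting complex in check until every chromosome is attached. Most of these genes are transcribed in waves that peak in G2 and M phase, under the DREAM and MuvB complexes with B-Myb and Foxm1, so their RNA in a culture is widely used as a readout of proliferation.

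Each library held between 17343228 and 25180790 counts assigned to genes. Scx itself, the labelled target, was at 0.152, 0.0468, 0.116 and 0.135 CPM (counts scaled to a common library size, with TMM factors) in Scx-deleted libraries 2, 3, 4 and 5, against 7.66, 7.06, 10.1 and 6.82 CPM in Scx-positive libraries 2, 3, 5 and 6. The groups did not overlap, and the log2 change was -6.08 ± 0.27 (SE; edgeR quasi-likelihood test, adjusted p = 1.75e-09). On a principal component plot of all tested genes, component 1 (53.3% of the variance) set the genotypes apart, and component 2 (12.9%) set Scx-positive library 5 apart. Xist was between 538 and 778 CPM in every library and none of 4 Y-linked genes had more than 2 counts in any library. Of 12 tendon fibroblast markers, 11 were above 1 CPM in at least 1 library and Lum was not. The list summed to 6569 to 7346 CPM in Scx-deleted and 9372 to 11935 CPM in Scx-positive libraries, mostly from Col1a1 and Col1a2. Of 11 tested genes, 10 were called lower, the deleted gene Scx among them, against 14.5% of all tested genes. Lists for other cells had lower sums than the tendon list. The 8 leukocyte markers summed to 18.4 to 22.2 CPM in Scx-deleted and 16.6 to 19.3 CPM in Scx-positive libraries, with Cd3e at 0. The 5 keratinocyte markers summed to 3.14 to 4.18 and 2.67 to 3.91 CPM, with Krt1 at 0. The 5 skeletal muscle markers summed to 26.8 to 36.2 and 34.7 to 40.8 CPM, with Myod1 at 0. Most of these sums came from Cd14, Krt10 and Acta1. Mean Cd14 was 15.1 CPM in Scx-deleted and 14.3 CPM in Scx-positive cells, and mean Acta1 was 30.1 and 36.4 CPM. Both genes were above the Scx-positive means of Scx (7.92 CPM) and Tnmd (6.93 CPM). Besides the tendon list, 2 lists had summed levels that did not overlap between genotypes: 6 endothelial markers summed to 49.5 to 54.1 CPM in Scx-deleted and 68.3 to 86.4 CPM in Scx-positive libraries, nearly all of it Tek with Pecam1 under 1 CPM, and 5 mural cell markers to 423 to 461 and 320 to 390.2 CPM, mostly Cspg4. Of the tested genes of these lists, Tek and the mural gene Rgs5 fell and the endothelial gene Kdr and Cspg4 rose. In the other lists, Csf1r of the leukocyte markers rose and Acta1 of the muscle markers fell. Their part in the results on division genes was not tested.

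RNA of the mitotic genes was lower in Scx-deleted cells almost throughout. Of the 56 genes, 54 fell (edgeR quasi-likelihood test, Benjamini-Hochberg adjusted p under 0.05 over all 13125 genes), 2 did not pass the test (Bub3 and Pttg1) and 0 rose. The background of that call is 14.5% of all tested genes lower and 14.0% higher. Among the 56, 0 were higher at an unadjusted p under 0.05, and DESeq2 and limma-voom called 0 higher. The adjusted p-values of the 54 ran between 2.84e-05 and 0.0451, and 45 of them were called in each of the 19 settings run at the 0.05 threshold, while 9 lost the call in at least 1.

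The change was shallow and broad rather than deep. The median log2 change of the 56 genes was -0.43 (range -0.78 to 0.10), with 54 of 56 under 0 where 51.2% of tested genes were, and the median over all tested genes was -0.0053, with 5th and 95th percentiles of -0.51 and 0.40. At the median, a mitotic gene in Scx-deleted cells had 74.1% of its mean level in Scx-positive cells, the called genes ran between 58.4% and 85.4%, and 0 of 56 were lower by 2-fold or more. Of all tested genes, 6.72% had a log2 change at or under the mitotic median. In 38 of 56 genes every Scx-deleted library was below every Scx-positive library, against 14.3% of tested genes, and 0 showed the opposite order, against 14.8%.

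**Figure D1:**
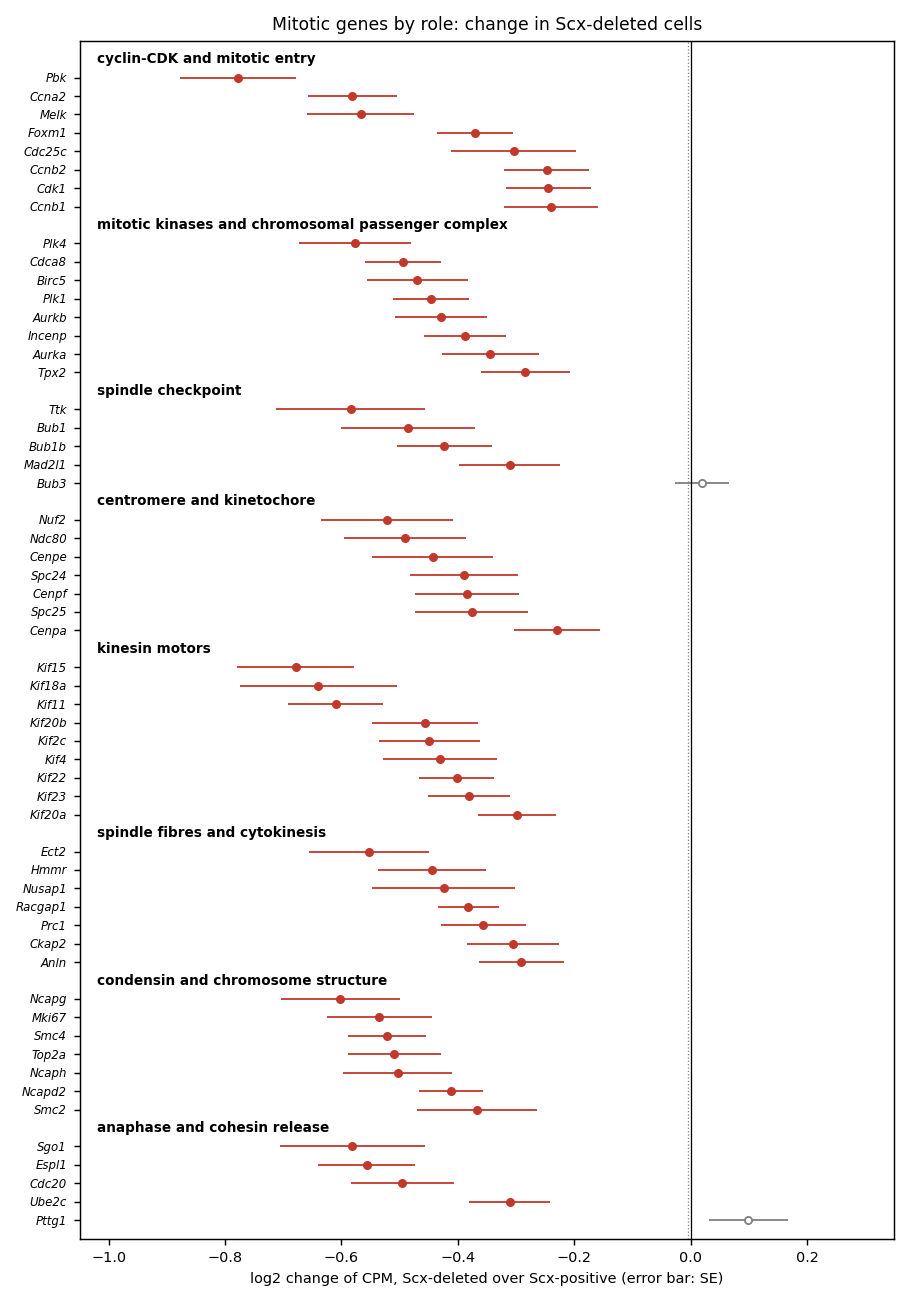
Log2 change of Scx-deleted over Scx-positive cells for each of the 56 mitotic genes, grouped by role, with bars for the standard error from the edgeR fit, filled points for genes past the test and a dotted line at the median of all tested genes. The points lie between -0.78 and 0.10, and those of Bub3 and Pttg1, drawn open, are the 2 above 0.

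The libraries can be read one at a time from the sum of the 56 genes. That sum was 1696, 1629, 1714 and 1520 CPM in Scx-deleted libraries 2, 3, 4 and 5 (mean 1640 ± 88.1, SD, n = 4), against 2110, 2216, 1878 and 2381 CPM in Scx-positive libraries 2, 3, 5 and 6 (mean 2146 ± 211, SD, n = 4). The groups did not overlap, but Scx-positive library 5 was the nearest to the Scx-deleted libraries. It was the lowest of its group for 47 of the 56 genes, while Scx-positive library 6 was the highest of all 8 for 45 and Scx-deleted library 5 the lowest of its group for 37. Gene by gene, the median log2 distance from the Scx-positive mean was -0.39, -0.44, -0.35 and -0.55 in the Scx-deleted libraries and -0.03, 0.06, -0.23 and 0.14 in the Scx-positive libraries. In 18 genes the groups overlapped, and 16 of those were called lower. Leaving out Scx-positive library 5 separated 15 of the 18, so that 53 of 56 genes did not overlap, against 20.3% of tested genes on the same 7 libraries. Without it the median log2 change was -0.48 in place of -0.43.

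**Figure D2:**
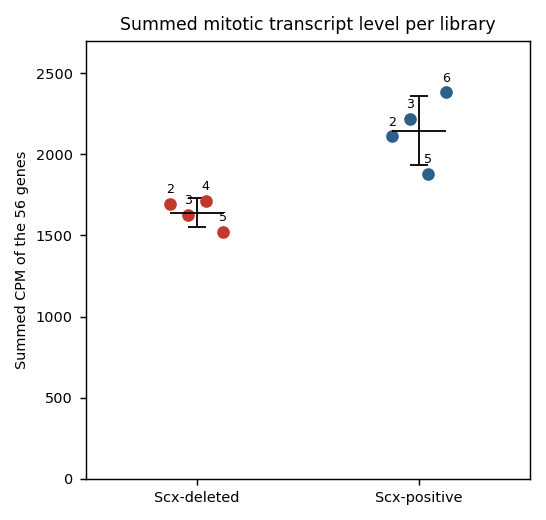
Summed CPM of the 56 mitotic genes in each library, with Scx-deleted libraries on the left and Scx-positive libraries on the right and bars for the mean and SD of each group (n = 4). The Scx-deleted libraries sit between 1520 and 1714 CPM and the Scx-positive libraries between 1878 and 2381 CPM.

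**Figure D3:**
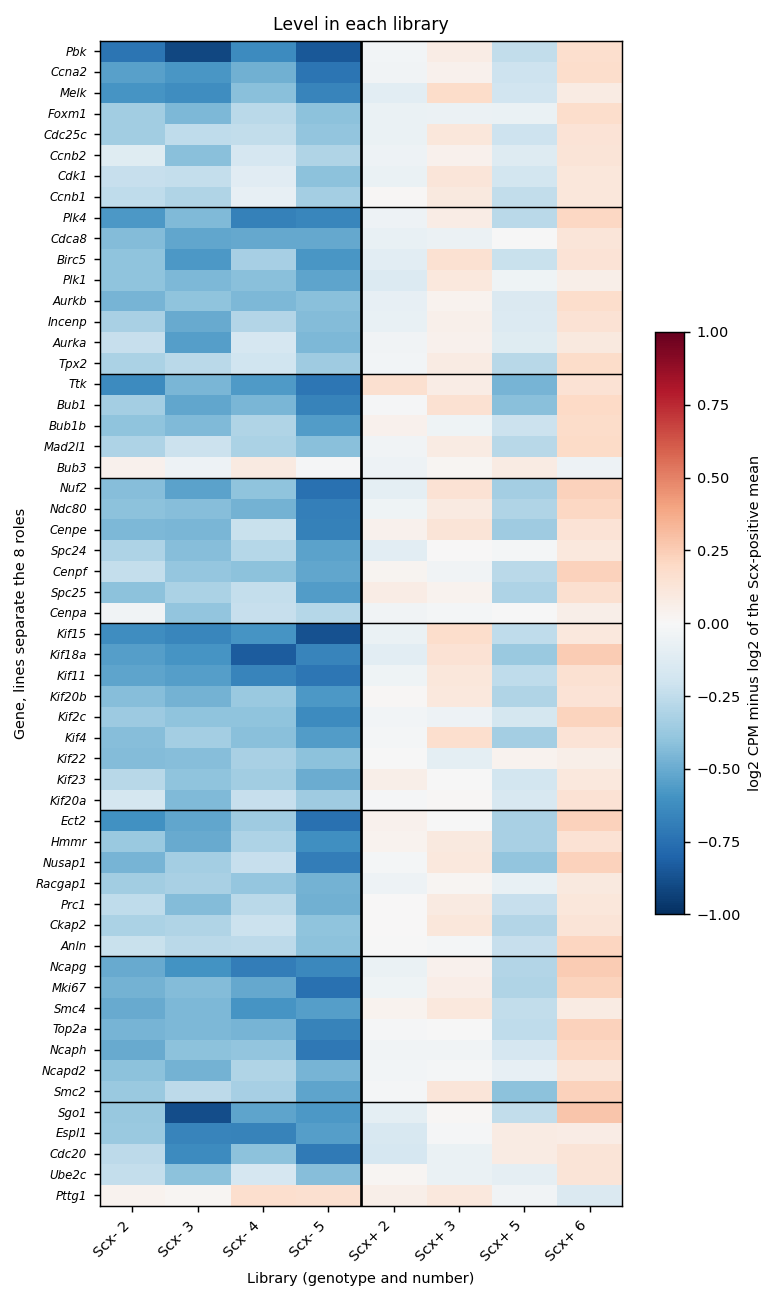
Log2 distance of each mitotic gene from its mean in Scx-positive libraries, with 1 row per gene grouped by role and 1 column per library. Scx-deleted libraries are on the left. The columns of Scx-deleted libraries have medians of -0.35 to -0.55, and the column of Scx-positive library 5, with -0.23, lies between them and the other Scx-positive libraries.

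Stretches around the transcription start sites are shown for 6 of these genes. The sequences are those of RefSeq on GRCm38.p6 and run 170 bases before to 30 bases after the start. Capitals mark CCAAT, the site bound by the NF-Y factor, or ATTGG, which is CCAAT on the other strand, and the CHR-type hexamers, which the DREAM and B-Myb complexes are known to bind in promoters of mitotic genes. One hexamer is TTTGAA, which reads TTCAAA when it lies on the other strand. The second form, TTCGAA, reads alike on both. Cdc20, Kif11, Top2a and Bub1 are examples of the genes that fell, and Bub3 and Pttg1 are the genes that did not pass the test. They were chosen after their values were seen.
Cdc20, chr4:118437314-118437513, minus strand: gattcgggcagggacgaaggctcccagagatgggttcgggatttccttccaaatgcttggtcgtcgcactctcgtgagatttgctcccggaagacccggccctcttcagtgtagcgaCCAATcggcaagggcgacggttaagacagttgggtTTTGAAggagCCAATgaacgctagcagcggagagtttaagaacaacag
Kif11, chr19:37376212-37376411, plus strand: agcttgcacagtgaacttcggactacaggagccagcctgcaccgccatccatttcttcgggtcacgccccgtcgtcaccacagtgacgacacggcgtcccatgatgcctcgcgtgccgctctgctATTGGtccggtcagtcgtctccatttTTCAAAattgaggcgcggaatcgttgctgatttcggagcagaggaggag
Top2a, chr11:99024160-99024359, minus strand: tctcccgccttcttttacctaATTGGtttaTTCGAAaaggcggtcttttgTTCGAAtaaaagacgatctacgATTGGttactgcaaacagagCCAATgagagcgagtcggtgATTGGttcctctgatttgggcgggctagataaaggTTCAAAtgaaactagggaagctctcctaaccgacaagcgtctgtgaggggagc
Bub1, chr2:127831830-127832029, minus strand: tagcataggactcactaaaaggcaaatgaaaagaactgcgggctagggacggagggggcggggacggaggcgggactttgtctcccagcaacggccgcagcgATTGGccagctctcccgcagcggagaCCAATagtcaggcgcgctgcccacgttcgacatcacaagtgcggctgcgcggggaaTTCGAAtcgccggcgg
Bub3, chr7:131560200-131560399, plus strand: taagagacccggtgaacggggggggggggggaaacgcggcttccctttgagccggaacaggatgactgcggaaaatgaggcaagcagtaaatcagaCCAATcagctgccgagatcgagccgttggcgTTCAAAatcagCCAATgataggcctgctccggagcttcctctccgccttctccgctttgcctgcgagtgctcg
Pttg1, chr11:43425952-43426151, minus strand: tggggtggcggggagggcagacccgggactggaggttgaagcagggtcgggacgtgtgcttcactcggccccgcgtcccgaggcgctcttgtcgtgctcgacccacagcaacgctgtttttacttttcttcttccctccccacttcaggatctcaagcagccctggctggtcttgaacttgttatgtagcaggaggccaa

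Promoter windows of 250 bases before to 50 after the start were found for 46 of the 56 genes, in 49 windows. A CHR-type hexamer, TTTGAA or TTCGAA on either strand, was in 38 of the 49 (77.6%), against 19.2% of all 32841 promoter windows and 13.7% of the windows of tested genes. CCAAT on either strand was in 35 (71.4%), against 37.4% and 37.6%. Both were in 33 (67.3%), against 7.52% and 5.58%. The median place of the first base was -17.5 for the hexamers and -69.5 for CCAAT, counted from the start, and in the 250 bases before the start alone the hexamer shares were 42.9% for the mitotic genes and 17.1% for all. A hexamer and a CCAAT can share no more than 1 end base. Both of the Bub3 windows hold both kinds of motif, while the Pttg1 window holds neither. In all, 9 of the 49 windows held neither. Apart from Pttg1, these belong to Birc5, Kif18a, Mad2l1, Melk, Ncaph, Nuf2, Nusap1 and Plk4, all of which fell. A match of letters is a description of the window and not a measured site. The list was chosen as genes of G2 and M phase, so high shares of these motifs can follow from that choice. A link between the motifs and the fall was not tested. Genes of the list with no entry in the promoter table were Ccna2, Aurkb, Incenp, Kif20a, Tpx2, Cdc25c, Foxm1, Smc4, Spc24 and Pbk.

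Mitotic entry was represented by 8 genes, and all 8 fell, with a median log2 change of -0.34. Pbk, a mitotic kinase, was at 8.50, 7.48, 9.11 and 7.83 CPM in Scx-deleted libraries, against 13.8, 14.9, 11.9 and 15.8 CPM in Scx-positive libraries. Its log2 change of -0.78 ± 0.10 (SE; edgeR adjusted p = 2.93e-05) is the largest of the 56, and the groups did not overlap. Ccna2, cyclin A2, which partners Cdk2 and Cdk1 from S phase into early mitosis, was at 31.4, 30.6, 32.7 and 27.7 CPM in Scx-deleted libraries, against 44.6, 47.2, 39.6 and 51.7 CPM in Scx-positive libraries, a log2 change of -0.58 ± 0.08 with no overlap. Melk, a kinase of proliferating cells, was at 10.5, 10.3, 11.8 and 10.03 CPM in Scx-deleted libraries, against 14.7, 17.98, 13.8 and 16.7 CPM in Scx-positive libraries, a log2 change of -0.57 ± 0.09 with all Scx-deleted libraries lower. Foxm1, a transcription factor that drives mitotic genes, was at 30.7, 28.7, 32.5 and 29.4 CPM in Scx-deleted libraries, against 37.4, 37.5, 37.4 and 44.1 CPM in Scx-positive libraries, and its change was -0.37 ± 0.07, again with no overlap.

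Smaller changes were measured for the cyclin B and Cdk1 genes. Ccnb1, cyclin B1, was at 24.8, 24.0, 28.0 and 23.4 CPM in Scx-deleted libraries, against 29.9, 31.6, 24.9 and 31.9 CPM in Scx-positive libraries, and the groups overlapped because Scx-positive library 5 lay within the range of the Scx-deleted libraries. Its log2 change was -0.24 ± 0.08 (SE; edgeR adjusted p = 0.0370). The call was lost in 6 of the 8 fits that left out 1 library, all but those without Scx-deleted library 4 or Scx-positive library 5, over which the adjusted p ran between 3.89e-04 and 0.121. Cdk1, the kinase that cyclin B activates, was at 48.7, 48.7, 53.1 and 43.0 CPM in Scx-deleted libraries, against 54.7, 62.2, 50.5 and 61.9 CPM in Scx-positive libraries, with Scx-positive library 5 again the lowest of its group. Its change was -0.24 ± 0.07 (adjusted p = 0.0201), and the call was lost without Scx-deleted library 5, Scx-positive library 3 or Scx-positive library 6, with adjusted p between 4.38e-04 and 0.0847 over the 8 fits. Ccnb2, cyclin B2, and Cdc25c, a phosphatase that activates Cdk1, had changes of -0.25 ± 0.07 and -0.30 ± 0.11. The call of Ccnb2 was lost in 3 of 8 such fits (without Scx-deleted 3, Scx-deleted 5 or Scx-positive 6; adjusted p between 0.00191 and 0.0737) and that of Cdc25c in 7 of 8 (all but the one without Scx-positive 5; 0.0120 and 0.127). The Cdc25c call was also lost with no filter on low counts, DESeq2, limma-voom and thinning to equal depth.

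All 8 genes of the mitotic kinases and the chromosomal passenger complex fell, with a median log2 change of -0.44, and 7 of the 8 showed no overlap. Plk4, the kinase that starts centriole duplication, was at 13.4, 14.7, 12.5 and 12.7 CPM in Scx-deleted libraries, against 19.2, 21.0, 16.5 and 23.0 CPM in Scx-positive libraries, a log2 change of -0.58 ± 0.10. Plk1, the Polo kinase of the spindle and centrosomes, was at 22.1, 21.4, 21.9 and 20.3 CPM in Scx-deleted libraries, against 26.5, 31.5, 28.4 and 30.5 CPM in Scx-positive libraries, a change of -0.45 ± 0.07 with no overlap. The passenger complex, which corrects faulty attachments and then guides cytokinesis, fell in all 4 subunits on the list. Its kinase Aurkb was at 11.5, 12.1, 11.7 and 11.9 CPM in Scx-deleted libraries, against 15.03, 16.3, 14.4 and 17.96 CPM in Scx-positive libraries (log2 change -0.43 ± 0.08). Its targeting subunit Cdca8, borealin, was at 17.1, 16.1, 16.3 and 16.2 CPM in Scx-deleted libraries, against 22.0, 22.3, 23.0 and 25.2 CPM in Scx-positive libraries (-0.49 ± 0.07), and Birc5, survivin, was at 24.6, 21.8, 25.8 and 21.7 CPM in Scx-deleted libraries, against 30.2, 36.1, 27.9 and 35.7 CPM in Scx-positive libraries (-0.47 ± 0.09). In each of these subunits the Scx-deleted libraries lay below all Scx-positive libraries, and the scaffold Incenp had a change of -0.39 ± 0.07. Aurka, the Aurora kinase of the spindle poles, changed by -0.34 ± 0.08, and Tpx2, which activates Aurka on microtubules, by -0.28 ± 0.08.

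Of the 5 spindle checkpoint genes, 4 fell and Bub3 did not pass the test. Ttk, the Mps1 kinase that starts checkpoint signalling, was at 6.38, 7.20, 6.68 and 5.98 CPM in Scx-deleted libraries, against 11.0, 10.4, 7.16 and 10.9 CPM in Scx-positive libraries. Its log2 change was -0.58 ± 0.13 (SE; edgeR adjusted p = 0.00290), although Scx-positive library 5 lay among the Scx-deleted libraries. Bub1, a kinase of the kinetochore, was at 17.0, 15.02, 15.7 and 13.5 CPM in Scx-deleted libraries, against 21.3, 23.9, 16.1 and 24.6 CPM in Scx-positive libraries, a change of -0.49 ± 0.12 with the same library inside that range. Bub1b, BubR1 of the mitotic checkpoint complex, was at 23.7, 23.1, 25.5 and 21.3 CPM in Scx-deleted libraries, against 32.3, 30.4, 26.9 and 35.7 CPM in Scx-positive libraries, a change of -0.42 ± 0.08, and was the checkpoint gene whose groups did not overlap. Mad2l1, the Mad2 subunit, changed by -0.31 ± 0.09, a call lost without Scx-deleted library 5 or Scx-positive library 6, with adjusted p between 6.00e-05 and 0.0552 over the 8 fits.

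Bub3 carries Bub1 and BubR1 to the kinetochore and also binds them as a stable partner. It was at 108, 101, 112 and 104 CPM in Scx-deleted libraries, against 101, 106, 111 and 101 CPM in Scx-positive libraries, so the groups overlapped and its log2 change was 0.02 ± 0.05 (edgeR adjusted p = 0.797). The sign turned to -0.0047 with upper-quartile scaling and to -0.0052 without Scx-deleted library 4. Bub3 was also the most abundant of the 5 checkpoint genes per kilobase of exon, with 15.1 CPM per kb in Scx-deleted and 14.9 CPM per kb in Scx-positive cells. Bub1 had 3.51 and 4.93 CPM per kb and Bub1b 5.47 and 7.33 CPM per kb, in that order of groups.

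All 7 centromere and kinetochore genes fell, with a median log2 change of -0.39, and 3 of the 7 showed no overlap. Nuf2 and Ndc80 form 1 arm of the complex that grips microtubules. Nuf2 was at 16.5, 15.3, 16.8 and 13.2 CPM in Scx-deleted libraries, against 20.7, 24.5, 17.5 and 26.1 CPM in Scx-positive libraries, a log2 change of -0.52 ± 0.11. Ndc80 was at 11.1, 11.0, 10.7 and 9.22 CPM in Scx-deleted libraries, against 14.3, 15.7, 11.99 and 17.1 CPM in Scx-positive libraries, a change of -0.49 ± 0.10, and in both genes every Scx-deleted library was below every Scx-positive library. The other arm, Spc24 and Spc25, changed by -0.39 ± 0.09 and -0.38 ± 0.10, so the intervals of 1 standard error of the 4 subunits meet. Cenpe, a kinesin that carries chromosomes to the spindle equator, was at 30.02, 29.9, 35.2 and 25.6 CPM in Scx-deleted libraries, against 42.1, 44.8, 32.0 and 45.1 CPM in Scx-positive libraries, a change of -0.44 ± 0.10 with Scx-positive library 5 inside the range of the Scx-deleted libraries, and Cenpf, a large protein of the outer kinetochore, changed by -0.38 ± 0.09. Cenpa, the histone that marks the centromere, was at 22.5, 17.5, 19.6 and 18.8 CPM in Scx-deleted libraries, against 22.5, 22.6, 22.9 and 23.9 CPM in Scx-positive libraries, and the groups overlapped. Its change of -0.23 ± 0.07 (SE; edgeR adjusted p = 0.0287) is the smallest among the 54 called genes. The call was lost without Scx-deleted libraries 3, 4 or 5 or Scx-positive libraries 2 or 6, with adjusted p between 0.00564 and 0.104 over the 8 fits.

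All 9 kinesins fell, and in all 9 every Scx-deleted library was below every Scx-positive library. Kif15 and Kif11 are the motors that push the spindle poles apart. Kif15 was at 9.52, 9.31, 9.75 and 8.01 CPM in Scx-deleted libraries, against 14.03, 16.5, 12.3 and 15.8 CPM in Scx-positive libraries, a log2 change of -0.68 ± 0.10 (SE; edgeR adjusted p = 1.16e-04). Kif11 was at 25.1, 24.7, 22.9 and 21.9 CPM in Scx-deleted libraries, against 35.2, 39.0, 30.3 and 40.2 CPM in Scx-positive libraries, a change of -0.61 ± 0.08 (adjusted p = 4.93e-05). Kif18a, which damps chromosome movements, was at 4.66, 4.54, 3.83 and 4.32 CPM in Scx-deleted libraries, against 6.32, 7.55, 5.27 and 8.13 CPM in Scx-positive libraries, a change of -0.64 ± 0.13, and was the least abundant of the 56 per kilobase of exon with 0.441 CPM per kb in Scx-deleted and 0.693 CPM per kb in Scx-positive cells. Kif2c, which takes microtubules apart at centromeres, changed by -0.45 ± 0.09, the chromosome-arm motors Kif4 and Kif22 by -0.43 ± 0.10 and -0.40 ± 0.06, and the midzone motors Kif20a, Kif20b and Kif23 by -0.30 ± 0.07, -0.46 ± 0.09 and -0.38 ± 0.07.

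All 7 genes of spindle fibres and cytokinesis fell, with a median log2 change of -0.38, with no overlap in 3. Ect2, which turns on RhoA at the cleavage furrow, was at 21.4, 22.6, 25.4 and 19.4 CPM in Scx-deleted libraries, against 33.4, 32.5, 26.0 and 38.2 CPM in Scx-positive libraries, a log2 change of -0.55 ± 0.10. Racgap1, its binding partner, changed by -0.38 ± 0.05, Prc1, which bundles midzone microtubules, by -0.36 ± 0.07, and Anln, anillin of the contractile ring, by -0.29 ± 0.07. Hmmr, a spindle protein, was at 30.8, 28.0, 32.2 and 26.0 CPM in Scx-deleted libraries, against 40.7, 42.5, 31.8 and 44.0 CPM in Scx-positive libraries, a change of -0.44 ± 0.09, and here too Scx-positive library 5 lay inside the range of the Scx-deleted libraries. Nusap1, which bundles spindle microtubules, was at 13.2, 14.4, 15.6 and 11.3 CPM in Scx-deleted libraries, against 18.01, 19.7, 13.9 and 21.5 CPM in Scx-positive libraries, a change of -0.42 ± 0.12, and Ckap2 changed by -0.31 ± 0.08. The call of Nusap1 (edgeR adjusted p = 0.0165) was lost without Scx-deleted library 5 or Scx-positive library 6, with adjusted p between 8.09e-05 and 0.0669 over the 8 fits.

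The deepest median, -0.51, was that of the 7 condensin and chromosome genes, all of which fell. Ncapg, a subunit of condensin I, was at 12.4, 11.6, 10.8 and 11.2 CPM in Scx-deleted libraries, against 16.7, 18.03, 14.3 and 20.8 CPM in Scx-positive libraries, a log2 change of -0.60 ± 0.10 (SE; edgeR adjusted p = 3.71e-04). The condensin ATPase Smc4 was at 65.8, 68.3, 61.9 and 63.6 CPM in Scx-deleted libraries, against 95.5, 100.3, 78.8 and 98.7 CPM in Scx-positive libraries, a change of -0.52 ± 0.07. Its partner Smc2 changed by -0.37 ± 0.10, and that call was lost without Scx-deleted library 5 or Scx-positive library 6, with adjusted p between 1.72e-06 and 0.0566 over the 8 fits. The other condensin I subunits Ncaph and Ncapd2 changed by -0.50 ± 0.09 and -0.41 ± 0.05, so every subunit of the complex on the list was lower. Mki67, which coats mitotic chromosomes and is the usual stain for dividing cells, was at 97.8, 100.3, 95.2 and 80.9 CPM in Scx-deleted libraries, against 132, 142, 110.2 and 159 CPM in Scx-positive libraries, a change of -0.53 ± 0.09 with no overlap. Top2a, the topoisomerase that untangles sister chromatids, was at 101, 102, 102 and 88.1 CPM in Scx-deleted libraries, against 139, 139, 117 and 165 CPM in Scx-positive libraries, a change of -0.51 ± 0.08 with no overlap.

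At the exit from mitosis, 4 of 5 genes fell. Sgo1, shugoshin, which shields centromeric cohesin, was at 7.74, 5.43, 6.97 and 6.75 CPM in Scx-deleted libraries, against 9.40, 10.1, 8.49 and 12.2 CPM in Scx-positive libraries, a log2 change of -0.58 ± 0.12 with no overlap. Espl1, separase, which cuts cohesin, was at 15.1, 12.3, 12.2 and 13.3 CPM in Scx-deleted libraries, against 17.4, 19.3, 20.7 and 20.5 CPM in Scx-positive libraries, a change of -0.56 ± 0.08, also with no overlap. Cdc20, the activator of the anaphase-promoting complex, was at 42.3, 32.7, 38.0 and 31.0 CPM in Scx-deleted libraries, against 45.1, 48.4, 53.6 and 55.3 CPM in Scx-positive libraries, a change of -0.50 ± 0.09, and had the highest level of the 56 per kilobase of exon, 19.3 CPM per kb in Scx-deleted and 27.1 CPM per kb in Scx-positive cells. Ube2c, the ubiquitin-conjugating enzyme of that complex, changed by -0.31 ± 0.07. Pttg1, securin, which holds separase inactive until anaphase, was at 23.5, 23.2, 25.7 and 25.5 CPM in Scx-deleted libraries, against 23.8, 24.7, 22.4 and 20.7 CPM in Scx-positive libraries, and the groups overlapped. Its change was 0.10 ± 0.07 (edgeR adjusted p = 0.302), against -0.56 ± 0.08 for separase (adjusted p = 1.20e-04). Whether this pair of changes differs was not tested.

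**Figure D4:**
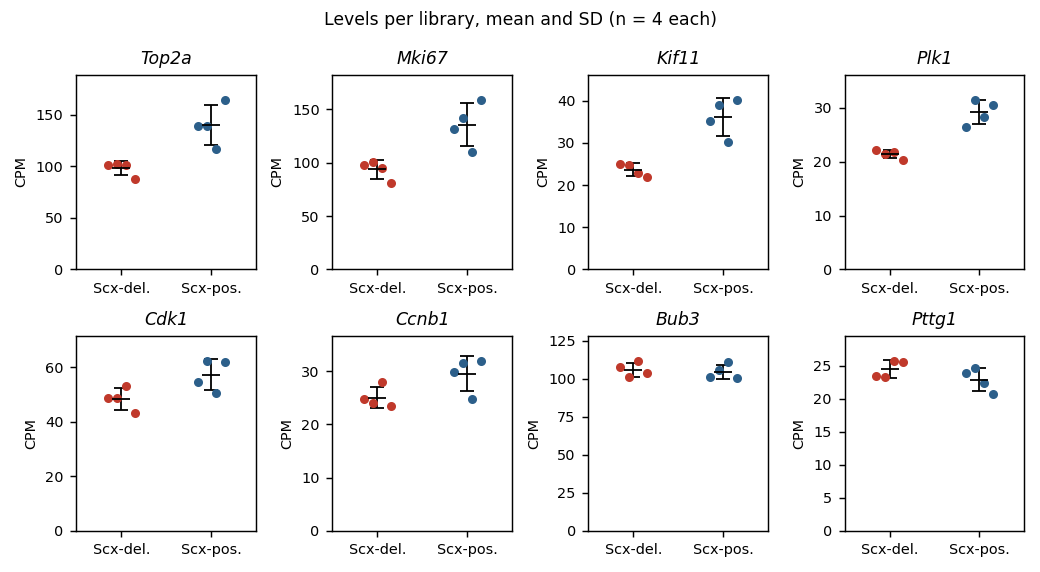
CPM of 8 mitotic genes in each library, on axes that start at 0, with Scx-deleted libraries left of Scx-positive libraries and bars for the mean and SD (n = 4 each). The groups do not overlap for Top2a, Mki67, Kif11 and Plk1, overlap in part for Cdk1 and Ccnb1, which passed the test, and overlap for Bub3 and Pttg1, which did not.

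Some counts can include reads of other loci, since the sources used here do not say how reads with several matches or strand were handled. Of the longest Ccnb1 transcript, 42.1% of its 50-base stretches also occur in transcripts of other genes, most of all in Ccnb1-ps. The same share was 11.4% for Cdc20 (most of all Gm7856), 6.84% for Plk1, 5.48% for Plk4 and 4.85% for Pbk. How far this alters their counts or log2 changes is not known. For each of these genes, the gene that shared the most stretches is not a row of the count table. Opposite-strand genes covered 29.3% of the exon bases of Kif20a (Cdc23), 22.8% of Ube2c (Tnnc2), 15.1% of Kif4 (Pdzd11) and 13.4% of Ncapg (Lcorl), and reads of such pairs cannot be told apart without strand. Of these neighbours, Cdc23 fell by 0.13 on the log2 scale, Pdzd11 and Lcorl did not pass the test, and Tnnc2 was under 0.1 CPM in the mean of either group.

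Neighbouring parts of the cell cycle were read from 7 further lists, beside the background of 14.5% of tested genes lower and 14.0% higher. Of 40 other G2 and M genes, 36 fell and 0 rose, with a median log2 change of -0.45, close to that of the 56. Iqgap3, a scaffold of dividing cells, had a log2 change of -0.68 ± 0.09, Fam83d, a spindle protein, -0.66 ± 0.08, Lmnb1, lamin B1, -0.52 ± 0.07, and Ckap2l, a spindle protein, -0.52 ± 0.08. The 4 that did not pass the test were Gtse1 with 0.00 ± 0.05, Psrc1 with 0.13 ± 0.06, Cdkn3 with -0.19 ± 0.12 and Depdc1b with -0.40 ± 0.21, and in all 4 the groups overlapped. Of 20 other kinetochore genes, from the inner kinetochore, its Mis12 link to the microtubule-binding arm and, with Zwilch, Zw10, Kntc1 and Zwint, the outer kinetochore, 9 fell and 0 rose (median -0.31). By smallest p these were led by Zwilch (-0.43 ± 0.09) and Kntc1 (-0.42 ± 0.09), subunits of the outer RZZ complex that recruits the checkpoint and dynein, and by Cenpk (-0.76 ± 0.13) and Cenph (-0.55 ± 0.11) of the inner kinetochore. Without Scx-positive library 5 that count was 14.

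The background for the next 3 lists, of more general machinery, is again 14.5% of tested genes lower and 14.0% higher, and a difference of these lists from it was not tested. Of 14 genes of the anaphase-promoting complex and its regulators, 3 fell and 1 rose (median -0.05). Fbxo5, the inhibitor Emi1, changed by -0.62 ± 0.10, while the subunits Anapc5, Cdc23 and Anapc7 changed by -0.16 ± 0.04, -0.13 ± 0.04 and 0.14 ± 0.04. The call of Cdc23 was lost in 6 of the 8 fits that left out 1 library, all but those without Scx-deleted 2 or Scx-positive 5 (edgeR adjusted p between 0.0206 and 0.151), and that of Anapc7 in 5 of 8, those without Scx-deleted 4 or 5 or Scx-positive 2, 3 or 6 (0.00656 and 0.0978), and with upper-quartile scaling. The Cdc23 call was also lost with no filter, with DESeq2 and with thinning to equal depth. Of 13 cohesin genes, 3 fell (median -0.09). These were Esco2, an acetyltransferase of S phase (-0.62 ± 0.14), Cdca5, sororin (-0.43 ± 0.11), and Pds5b (-0.25 ± 0.08; call lost without Scx-deleted 2 or 4 or Scx-positive 2 or 6, with adjusted p between 5.58e-05 and 0.0844), while Rad21, a ring subunit, had -0.11 ± 0.04 and did not pass the test. Without Scx-positive library 5 the cohesin count was 7. Of 16 general microtubule and dynein genes, 4 fell and 1 rose, with a median of 0.00. Those that fell were Numa1 (-0.18 ± 0.04), Dctn1 (-0.19 ± 0.05), Tubg1 (-0.18 ± 0.05) and Tubgcp2 (-0.17 ± 0.05), and Kif5b, a transport kinesin, rose by 0.13 ± 0.04, a call lost with upper-quartile scaling and in 6 of the 8 fits that left out 1 library, all but those without Scx-positive 3 or 5 (adjusted p between 0.0210 and 0.118).

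Regulators were mixed. Of 19 genes of the DREAM, E2F and B-Myb systems, 6 fell and 0 rose, with a median log2 change of -0.06. Mybl2, B-Myb itself, was at 4.61, 3.56, 4.59 and 4.32 CPM in Scx-deleted libraries, against 7.84, 6.53, 7.81 and 7.73 CPM in Scx-positive libraries, a change of -0.82 ± 0.11, which is larger in size than that of any of the 56 mitotic genes. The repressors E2f7 and E2f8 changed by -0.68 ± 0.08 and -0.72 ± 0.09, and the pocket protein gene Rbl1 by -0.38 ± 0.07. Of 15 G1 cyclins and CDK inhibitors, 5 fell and 3 rose (median -0.13), and the 5 became 3 without Scx-deleted library 3, Scx-deleted library 5 or Scx-positive library 6. Ccne2 and Ccne1, the E cyclins of the entry into S phase, changed by -0.96 ± 0.12 and -0.39 ± 0.06, whereas the D cyclin Ccnd2 rose by 0.19 ± 0.04, its kinase Cdk4 by 0.21 ± 0.05 and the CDK inhibitor p21, Cdkn1a, by 0.18 ± 0.04. In each of these 3 genes that rose, all Scx-deleted libraries were above all Scx-positive libraries, an order seen in 14.8% of all tested genes. Cdkn1a was at 484, 453, 493 and 476 CPM in Scx-deleted libraries, against 416, 402, 452 and 413 CPM in Scx-positive libraries.

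**Figure D5:**
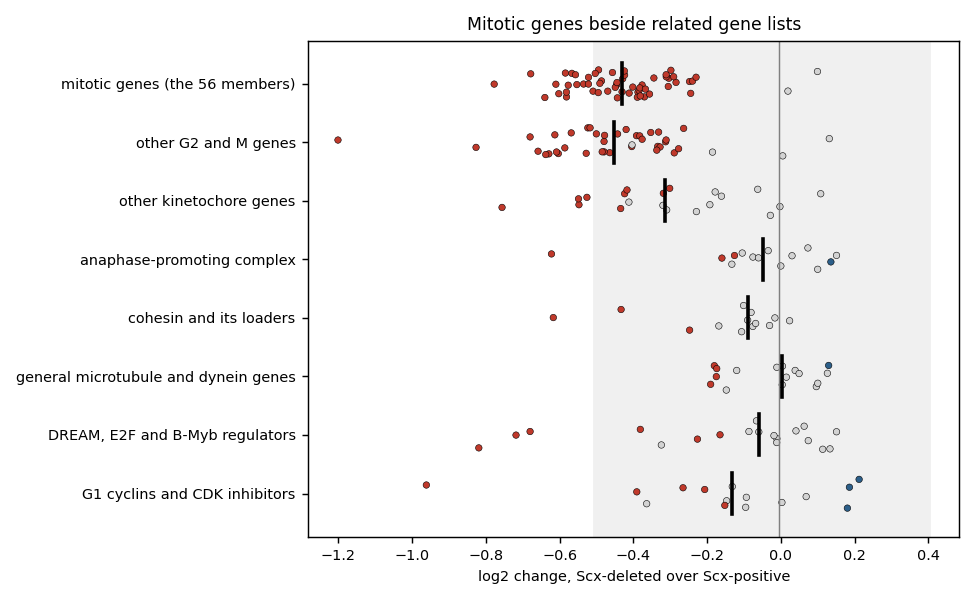
Log2 change of Scx-deleted over Scx-positive cells for every tested gene of the mitotic set and of the 7 further cell cycle lists, with a black line at the median of each list and the line and grey band at the median and the 5th to 95th percentiles of all tested genes. Red points fell, blue points rose and grey points did not pass the test. The medians are -0.43 for the mitotic set, -0.45 for other G2 and M genes and -0.31 for other kinetochore genes, and lie between -0.13 and 0.00 for the others.

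Promoters of the further lists were scanned with the same windows. As background, 19.2% of all promoter windows and 13.7% of the windows of tested genes held a CHR-type hexamer. In the 250 bases before the start alone, this background was 17.1% and 12.1%. Differences of the lists from it were not tested. A CHR-type hexamer was in 69.4% of 36 windows of the other G2 and M genes, 7 of 20 windows of the other kinetochore genes and 7 of 20 for the regulators, 33.3% of 9 for cohesin, 17.6% of 17 for general microtubule genes, 13.3% of 15 for the anaphase-promoting complex and 6.67% of 15 for G1 cyclins and inhibitors. In the 250 bases before the start alone, these shares were 38.9% for the other G2 and M genes, 7 of 20 for the other kinetochore genes, 6 of 20 for the regulators and 33.3% for cohesin, against 42.9% of the 49 mitotic windows, so that the mitotic set stood closer to these lists than with the 50 bases after the start included (77.6%).

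The authors' deposited table of the same comparison, which was made from other counts, lists 54 of the 56 genes as lower at an adjusted p under 0.05 and 0 as higher, where 14.1% of its 14511 genes with an adjusted p are lower at that threshold. In the authors' deposited table the log2 changes of the 56 ran between -0.82 and 0.08, with a median of -0.43. The largest distance from the edgeR value of any of the 56 was 0.11, between the authors' deposited table and the counts.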

How the data were processed

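Counts per gene symbol came from the authors' deposited table of 8 RNA-seq libraries, in whole numbers and not normalized, and fed every test. Reads in no feature (7.44% to 8.67% of counts) and ambiguous reads (0.490% to 0.567%) were left out. The authors' deposited comparison table gives a log2 fold change and an adjusted p-value per gene, per the file headers, and was used only for comparison, with its direction read from Scx. STAR, DESeq2, FastQC and mm10 are named in the submitters' processing notes. Not given in the sources used here are their roles and versions, how reads were counted, on which annotation, and whether strand was used. Per the labels' protocols, total RNA was purified with DNase treatment.

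Libraries were grouped by the genotype in the labels. Counts were analysed in R 4.3.3 with edgeR 4.0.16 and limma 3.58.1. Genes passed filterByExpr (minimum count 10, total 15) and libraries were scaled by TMM. The model held genotype alone, fitted by quasi-likelihood, and gave log2 changes (Scx-deleted over Scx-positive), with Benjamini-Hochberg adjustment over 13125 genes at 0.05. The size of a log2 change over the root of its F statistic was taken as its standard error. Libraries of a group varied by a common biological coefficient of 5.50%, a single figure for both groups. The spread was not even, by the chi-square of counts per gene between 2 libraries of a group. It was 11.5 to 13.3 for pairs with Scx-positive library 5 and 2.42 to 4.52 for all other pairs. The procedure was tested on simulated counts. Levels between genes are CPM per kilobase of exon, from GENCODE mouse release M21, which placed 24447 of 24982 symbols. Tried as alternatives were upper-quartile and RLE scaling, dropping the filter or raising it to 5 CPM in 4 libraries, limma-voom, DESeq2 1.42.0, a replicate block, offsets for GC content and length, thinning to equal depth, an adjusted p of 0.01 and leaving out each library. The count of genes whose groups do not overlap with each library left out was added after seeing the data.

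The mitotic genes, the 7 further lists and the marker lists were chosen with earlier results of these data known. Every mitotic gene is accounted for. Values per library are given for the 3 largest changes of each role, the genes not called, the 3 smallest changes, and Ccnb1, Cdk1, Mki67, Top2a, Plk1, Aurkb, Bub1 and Foxm1. From each further list, the 4 genes of smallest p and called genes that went against the majority are named. Other genes named (Gtse1, Psrc1, Cdkn3 and Depdc1b) and the printed promoters were chosen after their values were seen.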

Additional observations from a re-analysis of the deposited data

Results flagged for a closer look

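Among the 112 groups of 4 libraries formed by the 56 mitotic genes and both genotypes, 5 held a library whose gap to its nearest neighbour, divided by the range of the group, passed the 95% critical value of Dixon's test. Chance gives about 1 in 20 groups, so 5 is no more than that. Foxm1 was at 44.1 CPM in Scx-positive library 6, where the others of the group lay between 37.4 and 37.5 CPM. Cdca8 was at 17.1 CPM in Scx-deleted library 2, with the others between 16.1 and 16.3 CPM. Ttk was at 7.16 CPM in Scx-positive library 5, with the others between 10.4 and 11.0 CPM. Kif2c was at 14.3 CPM in Scx-deleted library 5, with the others between 16.7 and 17.1 CPM, and Top2a was at 88.1 CPM in the same library, with the others between 101 and 102 CPM.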

How the results depend on the processing

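The count of mitotic genes called lower stayed between 45 (adjusted p under 0.01) and 54 over all settings run, with 0 called higher in each. It was 46 to 54 when 1 library was left out, and the median log2 change then ran between -0.48 and -0.37. Bub3, near 0, turned to -0.0047 with upper-quartile scaling, -0.0052 without Scx-deleted library 4 (-0.0052 to 0.054 over the libraries left out), and -0.020 on the libraries numbered 2, 3 and 5, with and without the block. Replicate numbers were shared by 3 pairs, whose deviations from the group means correlated at -0.06, 0.16 and 0.06. Scx-deleted libraries 3 and 5 correlated best with their own number, and Scx-deleted library 2 with Scx-positive library 5 (0.14). The main fit did not take the numbers as pairing. With the replicate block on those 6 libraries 52 mitotic genes were lower, and 47 on the same libraries with no block. Of the genes named, Cdc25c, Cenpa, Cdc23, Anapc7, Pds5b and Tubg1 lost the call with the block. Over all genes, 1902 were lower and 1842 higher. These were 1143 and 1191 at an adjusted p under 0.01. On the 6 libraries they were 1616 and 1585 with the block, and 1239 and 1289 without it. The block thus gave more calls in both directions, and the labels do not say whether the numbers pair libraries. A pairing by number is therefore not excluded. Leaving out 1 library gave 1427 to 2310 lower and 1447 to 2409 higher. Upper-quartile scaling put 40.2% of calls on the higher side, against 49.2%.

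The further lists are small, and the causes of their shifts were not tested. For the anaphase-promoting complex the count higher, 1, was 0 with upper-quartile scaling, with the block, on the same libraries without it and at 0.01, 2 with the GC and length correction, and 0 to 2 with 1 library left out. General microtubule genes had 4 lower, which became 2 on the libraries numbered 2, 3 and 5 without the block, and 1 at 0.01. Their count higher, 1, became 0 with upper-quartile scaling, on those same libraries without the block and at 0.01. It was 4 with the GC and length correction, and 0 to 1 with 1 library left out. For cohesin the 3 lower became 5 with the GC and length correction and 2 to 7 with 1 library left out. Other kinetochore genes had 7 to 14 lower and 0 to 1 higher with 1 library left out, and 1 higher with the GC and length correction and with thinning. G1 genes had 5 lower, which became 3 with no filter, DESeq2, the block, the same libraries without it and at 0.01, 8 with the GC and length correction, and 3 to 6 with 1 library left out. Other G2 and M genes higher ran between 0 and 1, and DREAM, E2F and B-Myb genes higher between 0 and 2, with 1 library left out. In the 250 bases before the start alone, CHR-type hexamers were in 42.9% of mitotic windows, against 77.6%.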
